A study of Mus musculus with 39 samples.

Results

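The comparison described here is between mouse testes at 9.5 days post partum (dpp) and at 7.5 dpp, both taken directly from the animal. Its 6 samples, 3 at 9.5 dpp and 3 at 7.5 dpp, were chosen by their labelled source from the 39 samples of a series that also holds later in vivo ages and cultured testes. Total RNA was extracted with Trizol, treated with DNase and hybridized as biotin-labelled cRNA to 1-colour Illumina bead arrays. The labels name no strain, genotype or treatment for the in vivo groups, and leave unsaid whether samples of 1 age were taken from different animals. Every p-value therefore reflects variation among arrays, pooled over the 13 age and culture groups of the fit, and part of it may be technical. The question is which genes change over the first 2 days of normal development toward meiosis.

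In the mouse testis the first wave of spermatogenesis begins shortly after birth, when germ cells become undifferentiated spermatogonia or pass on to differentiating spermatogonia. Retinoic acid starts differentiation and later induces Stra8, whose protein switches on genes of the meiotic programme as preleptotene spermatocytes form. In the prophase that follows, chromosomes build the synaptonemal complex, telomeres attach to the nuclear envelope, and DNA breaks are repaired by recombination. Sertoli cells, which nurse the germ cells, still divide at these ages.

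Levels below are normalized log2 signals, and each difference is 9.5 dpp minus 7.5 dpp on the log2 scale with its SE from limma. Calls required a change of 2-fold or more together with an adjusted p below 0.05, by the Benjamini-Hochberg method over 12518 genes. A gene was detected on an array when any of its probes had a detection p below 0.01 there. Where a gene has several probes, that may be another probe than the one whose level is given. In whole-testis RNA, fewer cells of a type and less RNA per cell cannot be told apart, and this holds for every result below.

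Replicate 2 of 9.5 dpp stood apart from the other arrays. Its detected share of probes was 35.6%, below the 38% of the next lowest of the other 37 arrays. It correlated at 0.933 and 0.935 with the other arrays of its own group, which correlated at 0.990 with each other, and at 0.923 to 0.930 with the 7.5 dpp arrays. Replicate 1 of 7.5 dpp had a mean signal of 788.7, against 513.2 and 465.9 on the other 7.5 dpp arrays. Counts of called genes are therefore given with and without replicate 2 of 9.5 dpp, and a called gene's value without it is given where its call ends and for the main genes.

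Of 12518 genes, 171 were called higher at 9.5 dpp (1.37%) and 92 were called lower (0.735%). Without replicate 2 of 9.5 dpp the counts were 122 higher (0.975%) and 61 lower (0.487%). By adjusted p alone, with no minimum difference, 447 genes (3.57%) were higher and 417 (3.33%) lower. The calls shared by both fits were 81 higher and 31 lower genes. The arrays of the 2 ages did not overlap for 156 of the higher and 89 of the lower genes (23.1% of all genes), which describes the genes chosen by the call and is no separate support for it. Replicate 2 was the highest of the 3 arrays at 9.5 dpp for 67.3% of the higher genes (40.9% of all genes) and the lowest for 77.2% of the lower genes (48.4% of all genes). Replicate 1 of 7.5 dpp was the lowest of its group for 63.2% of the higher genes, against 43% of all genes. Leaving out replicate 1 or replicate 3 of 9.5 dpp instead gave 341 and 344 higher and 225 and 244 lower genes, and leaving out replicate 1 of 7.5 dpp gave 116 and 66. When the 6 arrays were normalized and fitted alone, without the other ages to estimate the spread, 3 genes were higher and 1 was lower. With the authors' own log2 values in the same fit, 35 were higher and 16 lower.

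**Figure D1:**
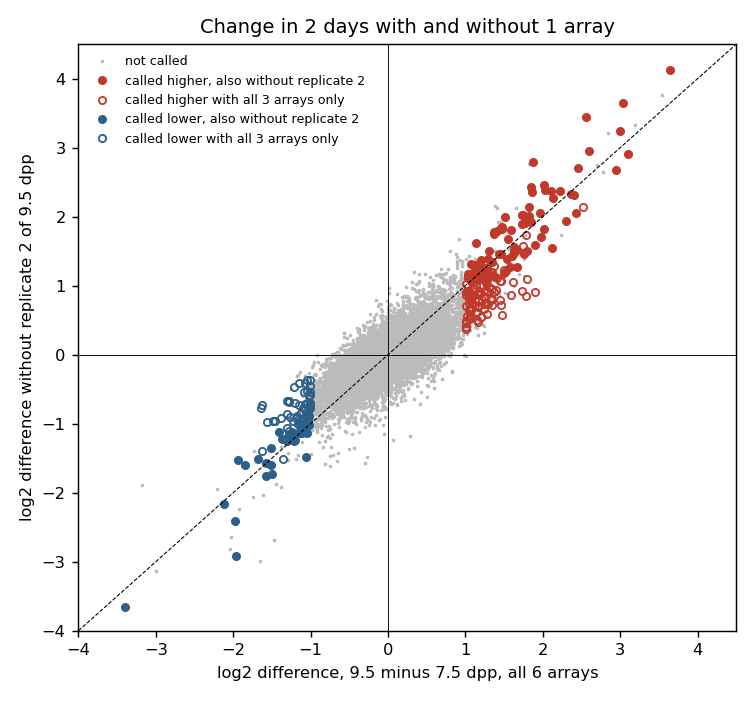
Each point is a gene, with its log2 difference (9.5 minus 7.5 dpp) from all 6 arrays on the x axis and from 5 arrays, without replicate 2 of 9.5 dpp, on the y axis. Filled points are the 81 higher and 31 lower genes called in both fits, and open points are genes called with all 3 arrays only.

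Genes of meiotic entry and early prophase were the list with the most calls. Of 48 listed genes, 32 passed the detection filter and were tested, of which 13 (40.6%) were called higher and 0 lower, against 1.37% and 0.735% of all genes. The median difference of the 32 genes was 0.89, against -0.02 over all genes tested. Without replicate 2 of 9.5 dpp the count was again 13 higher and 0 lower, with a median of 1.10. The genes were not all the same. In that fit Syce2 was no longer called (0.78). The RIKEN transcript 4930432K21Rik, listed as Brme1, was called instead (1.11, limma adjusted p = 0.0127). Without replicate 1 of 7.5 dpp it was 9. Among the 13 called genes, the 2 ages did not overlap for 12. Replicate 2 was the lowest 9.5 dpp array for 10 of them, and replicate 1 the lowest 7.5 dpp array for 10.

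Meiob encodes a single-strand DNA binding protein that acts in meiotic recombination, together with the protein of Spata22. Its level was 8.57, 6.96 and 8.98 on the 3 arrays at 9.5 dpp, all detected, against 4.73, 5.09 and 5.59 at 7.5 dpp, none detected. The groups were well apart although replicate 2 was the lowest 9.5 dpp array. It was higher by at least 5.74-fold (3.03 ± 0.50, limma adjusted p = 0.000508), and the difference without replicate 2 was 3.64. An "at least" fold here raises each array of the undetected age to no less than the lowest signal of any detected probe on it, and takes the other age at its measured mean. Spata22 was at 6.66, 6.22 and 6.87 at 9.5 dpp, against 4.72, 4.71 and 4.86 at 7.5 dpp, again undetected on all 3 younger arrays. Its difference was 1.82 ± 0.42, a rise of 1.91-fold or more (limma adjusted p = 0.00996).

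Terb1 and Terb2 encode partners that tie telomeres to the nuclear envelope in meiotic prophase. Terb1 was at 9.02, 8.15 and 9.44 at 9.5 dpp, against 6.34, 7.01 and 7.20 at 7.5 dpp, a difference of 2.02 ± 0.31 (limma adjusted p = 0.000217), or 2.38 without replicate 2 of 9.5 dpp. Terb2 was at 6.77, 6.53 and 7.04 at 9.5 dpp, against 5.08, 5.24 and 5.38 at 7.5 dpp, where no array detected it (1.55 ± 0.31, limma adjusted p = 0.00317, at least 2.19-fold). For both genes all 9.5 dpp arrays lay above all 7.5 dpp arrays.

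Msh5, a relative of mismatch repair genes that acts in crossing over, was at 7.63, 6.22 and 7.49 at 9.5 dpp, against 4.88, 4.98 and 5.43 at 7.5 dpp. The difference was 2.01 ± 0.36 (limma adjusted p = 0.00123) for its brightest probe, and over its 4 kept probes it ran from 0.12 to 2.01. Of the 3 arrays at 7.5 dpp, 1 detected the gene through any of its probes. The brightest probe lay below the lowest signal of any detected probe on all 3. Mei1, needed for the DNA breaks that start recombination, was at 8.12, 7.06 and 8.32 at 9.5 dpp, against 5.94, 6.59 and 6.74 at 7.5 dpp (1.41 ± 0.34, limma adjusted p = 0.0126).

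The synaptonemal complex genes Sycp1, Syce2 and Syce3 encode its transverse filament and parts of its central element. Sycp1 was at 5.98, 7.03 and 6.20 at 9.5 dpp, against 5.08, 4.64 and 4.93 at 7.5 dpp, where it was undetected (1.52 ± 0.30, limma adjusted p = 0.00326, at least 1.68-fold). Syce3, the brightest of the 3, was at 11.59, 12.10 and 11.68 at 9.5 dpp, against 9.39, 10.38 and 10.73 at 7.5 dpp (1.63 ± 0.31, limma adjusted p = 0.00227). Syce2 differed by 1.16 ± 0.33 with all arrays (limma adjusted p = 0.0321) and by 0.78 without replicate 2 of 9.5 dpp (limma adjusted p = 0.246), which ends its call. These are the 3 called meiotic genes in which replicate 2 was the highest 9.5 dpp array. Syce1 (0.90 ± 0.24) and Smc1b, the meiotic cohesin subunit (0.75 ± 0.23), had adjusted p-values below the threshold in limma but differences under 2-fold. Their limma adjusted p-values without replicate 2 of 9.5 dpp were 0.114 and 0.172. The same held with all arrays for 4930432K21Rik (0.94 ± 0.23, limma adjusted p = 0.0141), which was called without replicate 2 (1.11, limma adjusted p = 0.0127).

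Stra8 was at 7.40, 7.32 and 7.84 at 9.5 dpp, against 5.78, 6.29 and 6.64 at 7.5 dpp. It was detected on all 6 arrays, and its 2 ages did not overlap. The difference was 1.29 ± 0.34 (limma adjusted p = 0.0211), or 2.44-fold. It was 1.38 without replicate 2 of 9.5 dpp, and without replicate 1 of 7.5 dpp it was 1.06 and not called (limma adjusted p = 0.107). Meioc, whose product keeps the early meiotic programme running, was at 8.24, 7.12 and 8.28 at 9.5 dpp, against 5.67, 6.59 and 6.96 at 7.5 dpp (1.47 ± 0.36, limma adjusted p = 0.0131). Zcwpw1, a reader of the chromatin marks left by Prdm9, was 1.04 ± 0.19 higher (limma adjusted p = 0.00177). Hormad2, which marks unpaired chromosome axes, was 1.14 ± 0.35 higher (limma adjusted p = 0.0451), and it is the 1 called member whose ages overlapped.

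**Figure D2:**
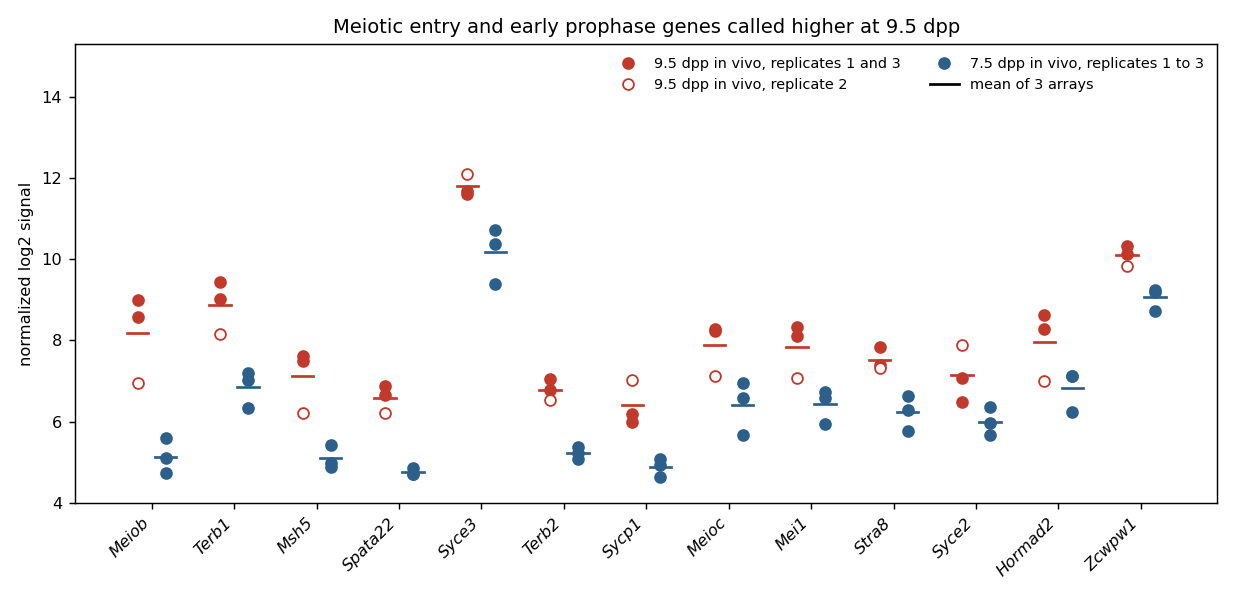
Normalized log2 signal of the 13 meiotic entry and early prophase genes called higher, with 1 point per array, 9.5 dpp on the left of each pair and 7.5 dpp on the right, and a bar at the mean of 3 arrays. The open points are replicate 2 of 9.5 dpp, which lies below both other 9.5 dpp arrays in 10 of the 13 genes; the ages overlap in Hormad2 alone.

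The other 19 tested members of the list were not called. Sycp2, an axis protein of the synaptonemal complex, differed by 1.09 ± 0.39 (limma adjusted p = 0.078). Rec8, the meiotic cohesin subunit that retinoic acid induces, was at 8.74, 7.95 and 8.90 at 9.5 dpp, against 6.82, 8.11 and 8.25 at 7.5 dpp, with overlap between the ages (0.80 ± 0.36, limma adjusted p = 0.161). Spo11, whose product makes the DNA breaks, was at 8.91, 7.30 and 9.15 at 9.5 dpp, against 7.11, 7.55 and 8.08 at 7.5 dpp (0.88 ± 0.47, limma adjusted p = 0.243). In Rec8 and Spo11 the overlap came from replicate 2 of 9.5 dpp. Probes for Sycp3 and Dmc1 did not pass the detection filter and Prdm9 was not tested, so these were not analysed here.

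STRA8 protein acts at promoters of meiotic genes. The stretch before the transcription start is therefore shown for 3 called meiotic genes with a window in RefSeq's promoter table (GRCm38.p6). In all 3 motifs were searched on both strands. They were the STRA8 motif CNCCTCAG, the E2F motif in the forms TTTCCCGC, TTTGGCGC, TTTGCCGC and TTTCGCGC, and the E-box CACGTG. No form of one motif contains a form of another. Of the 3 called meiotic genes with the smallest adjusted p, Terb1 and Msh5 are shown and Meiob had no window. Foxc2, the lower gene with the smallest adjusted p, was also sought and had none. Hormad2 was added after the search because it also held a STRA8 motif before the start. Each is 250 bases on the minus strand, ending at the start site, with matches in capitals, at chr8:104509888-104510137 for Terb1, chr17:35046623-35046872 for Msh5 and chr11:4441083-4441332 for Hormad2.
Terb1: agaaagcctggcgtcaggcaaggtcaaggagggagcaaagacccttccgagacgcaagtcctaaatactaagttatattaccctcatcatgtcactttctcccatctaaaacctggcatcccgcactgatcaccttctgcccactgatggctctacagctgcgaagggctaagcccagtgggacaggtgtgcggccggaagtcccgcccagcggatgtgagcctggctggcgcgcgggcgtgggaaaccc
Msh5: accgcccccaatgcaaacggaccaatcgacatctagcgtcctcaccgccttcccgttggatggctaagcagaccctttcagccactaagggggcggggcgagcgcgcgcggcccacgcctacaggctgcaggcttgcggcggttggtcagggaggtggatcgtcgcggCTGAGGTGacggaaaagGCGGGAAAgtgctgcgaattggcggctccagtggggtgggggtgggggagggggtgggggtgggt
Hormad2: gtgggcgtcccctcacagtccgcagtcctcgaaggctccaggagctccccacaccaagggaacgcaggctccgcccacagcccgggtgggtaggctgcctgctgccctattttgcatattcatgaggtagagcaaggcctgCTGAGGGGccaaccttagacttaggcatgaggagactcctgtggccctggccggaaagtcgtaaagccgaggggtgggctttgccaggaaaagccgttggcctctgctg
In Msh5 the STRA8 motif began 82 bases before the start, read on the other strand as CTGAGGTG, and an E2F motif began 65 bases before it, as GCGGGAAA. In Hormad2 the STRA8 motif began 109 bases before the start, as CTGAGGGG. No match was found in the Terb1 stretch.

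Over the whole 300-base windows, which run to 50 bases after the start, the STRA8 motif was in 25 of the 141 higher genes with a window (17.7%) and in 5 of the 70 lower genes (7.14%), against 934 of 10082 windows of all genes tested (9.26%). Of the 13 called meiotic genes, 11 had a window and 3 held the motif. The E2F motif was in 6.38% of higher, 1.43% of lower and 3.97% of all windows, and the E-box in 9.22%, 11.4% and 9.83%. These shares are descriptions of the windows, and binding was not measured.

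Differentiating spermatogonia carry a set of genes that partly overlaps the meiotic list. Of 23 listed genes 21 were tested, and 4 were called higher and 1 lower, with a median of 0.42. Over all genes 1.37% were higher and 0.735% lower. The counts were the same without replicate 2 of 9.5 dpp. Prss50, a testis gene of the serine protease family, was at 9.81, 9.33 and 10.30 at 9.5 dpp, against 5.91, 7.03 and 7.52 at 7.5 dpp. Every 9.5 dpp array was well above every 7.5 dpp array, a difference of 2.99 ± 0.33 (7.97-fold, limma adjusted p = 2.01e-06), and the gene was also called without any 1 of the 6 arrays. Tex101, a germ cell surface glycoprotein, was at 9.34, 9.31 and 10.06 at 9.5 dpp, against 7.27, 7.83 and 8.19 at 7.5 dpp (1.81 ± 0.34, limma adjusted p = 0.00226). Rhox13, an X-linked germ cell homeobox gene, was at 11.02, 11.24 and 11.09 at 9.5 dpp, against 9.579, 9.931 and 9.998 at 7.5 dpp (1.28 ± 0.21, limma adjusted p = 0.000508). Stra8 was the other member called higher. For none of these did the ages overlap.

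Several classic markers of the same step were not called. Kit, the receptor that marks differentiating spermatogonia, was at 11.81, 10.10 and 11.81 at 9.5 dpp, against 11.003, 11.279 and 11.860 at 7.5 dpp. The ages overlapped, with replicate 2 of 9.5 dpp the lowest array (-0.14 ± 0.36, limma adjusted p = 0.85), and the difference turned to 0.43 without it (limma adjusted p = 0.586). Sohlh1, a transcription factor of differentiation, was between 12.28 and 12.65 at 9.5 dpp and between 12.08 and 12.50 at 7.5 dpp (0.12 ± 0.21, limma adjusted p = 0.773). Dmrtb1, which guards the switch from mitosis to meiosis, differed by 0.58 ± 0.41 (limma adjusted p = 0.391). Ccnd2, the D-type cyclin of spermatogonia, was at 9.16, 9.52 and 9.70 at 9.5 dpp, against 11.10, 10.30 and 10.32 at 7.5 dpp (-1.11 ± 0.28, limma adjusted p = 0.0156). Its call ended without replicate 1 of 9.5 dpp (-0.96) and without replicate 1 of 7.5 dpp (-0.85).

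Of 28 genes of undifferentiated spermatogonia 24 were tested, and 0 were called higher and 2 lower, both also without replicate 2 of 9.5 dpp. The median was -0.22, and the shares over all genes were 1.37% higher and 0.735% lower. Glis3, a zinc finger factor, was at 6.06, 5.32 and 6.34 at 9.5 dpp, against 7.69, 7.17 and 7.10 at 7.5 dpp (-1.41 ± 0.29, limma adjusted p = 0.00422). Its 2 kept probes differed by -1.41 and -0.77. Lhx1, a homeobox gene that responds to the stem cell factor GDNF, was at 6.40, 5.90 and 6.19 at 9.5 dpp, against 8.08, 6.96 and 7.18 at 7.5 dpp (-1.24 ± 0.26, limma adjusted p = 0.00454). In neither gene did the ages overlap, though without replicate 1 of 7.5 dpp the Lhx1 difference was -0.91 and not called. Ret, the receptor for GDNF, was at 8.38, 8.85 and 8.40 at 9.5 dpp, against 8.96, 9.57 and 9.55 at 7.5 dpp, without overlap but not called (-0.82 ± 0.29, limma adjusted p = 0.0749). Zbtb16, a repressor kept on in these cells, differed by -0.18 ± 0.23 (limma adjusted p = 0.678). Gfra1 did not pass the filter. Gdnf itself, listed with Sertoli cells, was at 9.55, 9.27 and 9.33 at 9.5 dpp, against 10.95, 10.26 and 9.93 at 7.5 dpp, just under the 2-fold limit (-0.99 ± 0.29, limma adjusted p = 0.034). It differed by -0.94 without replicate 2 of 9.5 dpp (limma adjusted p = 0.123).

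Genes of later germ cells and of the piRNA pathway showed few calls. Of 24 tested genes of pachytene spermatocytes, the cells that follow early prophase, 1 was called higher (4.17%), against 1.37% of all genes. This was Calr3 (1.04 ± 0.32, limma adjusted p = 0.0455). It encodes a testis-specific chaperone, and it was not called without replicate 2 of 9.5 dpp (0.51) or without any 1 array of 7.5 dpp (0.96 to 1.13). No array of the 6 detected 7 of the 24 genes. None of 21 tested piRNA pathway genes was called with all 6 arrays in limma, and the median was -0.03. Without replicate 2 of 9.5 dpp 1 of them, the RNA-binding factor gene Exd1, was called lower (-1.07, limma adjusted p = 0.016). Of 18 tested genes of retinoic acid supply and response, Stra8 alone was called, and the retinoic acid synthesis gene Aldh1a2 differed by 0.67 ± 0.25 (limma adjusted p = 0.0892).

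**Figure D3:**
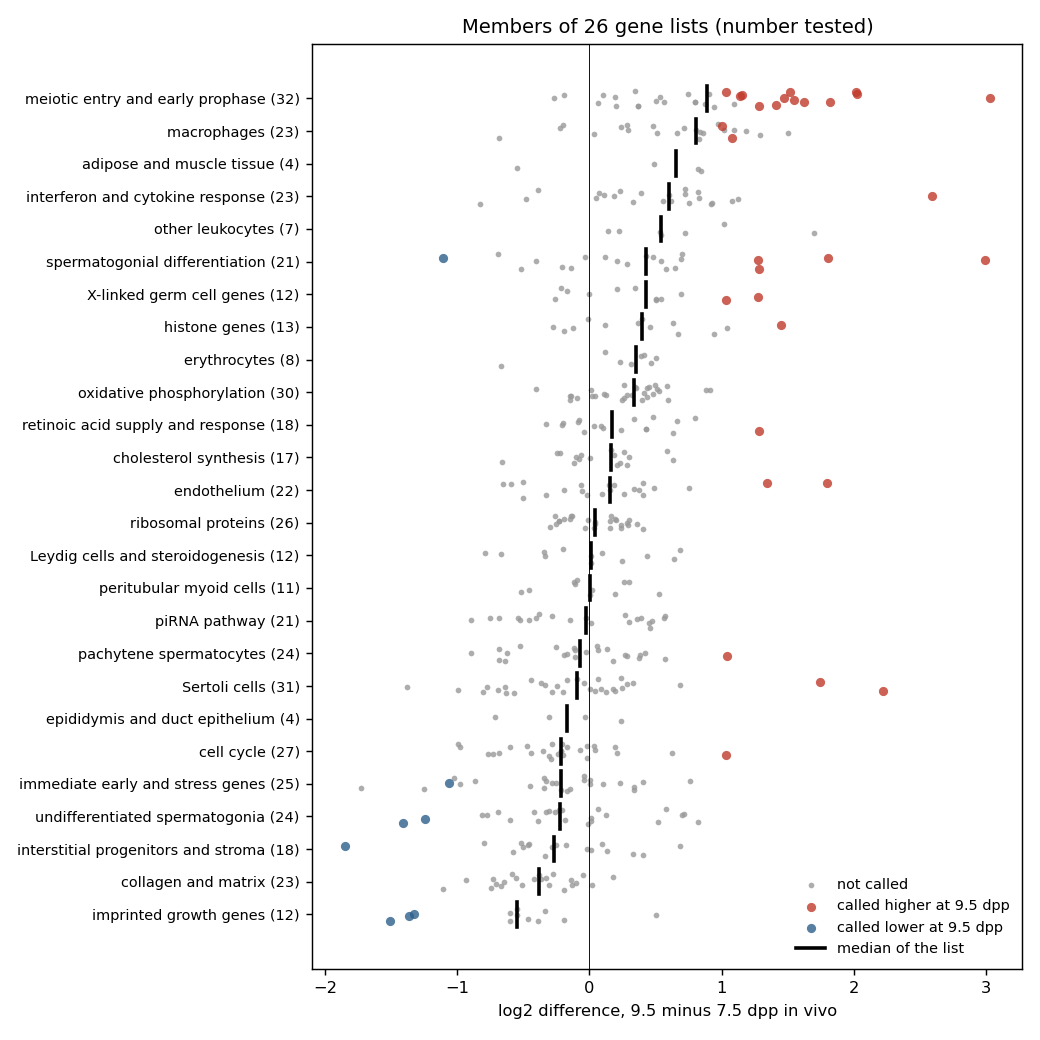
Log2 difference (9.5 minus 7.5 dpp) of every tested member of 26 gene lists, with the number tested in parentheses, red points for genes called higher, blue for genes called lower and a bar at each list's median. The meiotic entry list has 13 red points and a median of 0.89, and the imprinted growth list has 3 blue points and the lowest median.

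Among Sertoli cell genes, 31 of 38 were tested, and 2 were called higher and 0 lower, with a median of -0.10. Over all genes 1.37% were higher and 0.735% lower, and without replicate 2 of 9.5 dpp 1 Sertoli cell gene was called higher and 0 lower. Rhox5, the androgen-responsive homeobox gene of Sertoli cells, was at 8.60, 9.00 and 10.28 at 9.5 dpp, against 5.83, 8.02 and 7.36 at 7.5 dpp. All 9.5 dpp arrays were above the 7.5 dpp arrays (2.22 ± 0.47, 4.66-fold, limma adjusted p = 0.00519), but without replicate 1 of 7.5 dpp the difference was 1.60 and not called (limma adjusted p = 0.0585). Drd4, a dopamine receptor gene, was 1.75 ± 0.44 higher (limma adjusted p = 0.0177), and not called without replicate 2 of 9.5 dpp (1.58, limma adjusted p = 0.0881) or without replicate 1 (1.49) or 3 (1.58) of 7.5 dpp. Amh, the hormone of immature Sertoli cells, was at 9.39, 11.25 and 9.44 at 9.5 dpp, against 10.88, 10.12 and 9.93 at 7.5 dpp. Here the highest array of all was replicate 2 of 9.5 dpp and the ages overlapped (-0.28 ± 0.49, limma adjusted p = 0.773, and -0.90 without that array, limma adjusted p = 0.399).

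The steroid-making Leydig cells and the rest of the interstitium gave few calls. None of 12 tested Leydig cell genes was called with all 6 arrays in limma or without replicate 2 of 9.5 dpp. Cyp17a1, an enzyme of androgen synthesis, differed by -0.79 ± 0.87 (limma adjusted p = 0.619), and Insl3, the peptide hormone of Leydig cells, by 0.01 ± 0.34 (limma adjusted p = 0.987). Star, which moves cholesterol into mitochondria, differed by -0.34 ± 0.40 (limma adjusted p = 0.645). Of 18 tested stromal genes 1 was called lower (5.56%), against 0.735% of all genes. Inhba, which encodes the beta A subunit of activin, was at 8.83, 8.36 and 9.37 at 9.5 dpp, against 10.91, 10.75 and 10.46 at 7.5 dpp, well separated (-1.85 ± 0.28, limma adjusted p = 0.000199, and -1.60 without replicate 2). Igf1, listed with it, differed by 0.33 ± 0.35 (limma adjusted p = 0.6) and by -0.26 without replicate 2.

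None of 23 tested collagen and matrix genes (of 28) was called in limma, with or without replicate 2 of 9.5 dpp, and 2 had an adjusted p below the threshold with all arrays. Their median difference was -0.38 with all arrays and -0.22 without replicate 2 of 9.5 dpp, and 21 of the 23 differences were negative with all arrays. The basement membrane genes Lamb1 (-0.71 ± 0.21, limma adjusted p = 0.0393) and Lama1 (-0.75 ± 0.24, limma adjusted p = 0.0499) passed the adjusted p alone. Neither did so without replicate 2 of 9.5 dpp, at -0.79 for Lamb1 (limma adjusted p = 0.0641) and -0.48 for Lama1 (limma adjusted p = 0.336). The matrix protease gene Mmp2 missed the threshold (-1.11 ± 0.38, limma adjusted p = 0.068). Mean levels of the list were 10.18, 9.55 and 10.06 at 9.5 dpp, against 10.58, 10.23 and 10.24 at 7.5 dpp, with replicate 2 of 9.5 dpp the lowest.

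Imprinted growth genes, active from 1 parental copy and mostly declining as young animals grow, were called lower in 3 of 12 tested members (25%) and higher in 0, against 0.735% and 1.37% of all genes. The count was 3 without each of the 6 arrays in turn, 2 with no background correction, 1 with the authors' values and 0 with the 6 arrays alone. Peg3, a zinc finger gene expressed from the paternal copy, was at 9.41, 9.02 and 9.57 at 9.5 dpp, against 10.87, 10.76 and 10.89 at 7.5 dpp (-1.51 ± 0.20, limma adjusted p = 2.86e-05). Mest, also paternal, was at 7.63, 7.23 and 7.74 at 9.5 dpp, against 9.38, 8.85 and 8.48 at 7.5 dpp (-1.37 ± 0.27, limma adjusted p = 0.00317). Rian, a maternal non-coding RNA, was at 6.46, 6.47 and 7.10 at 9.5 dpp, against 8.14, 8.02 and 7.84 at 7.5 dpp (-1.33 ± 0.24, limma adjusted p = 0.00153). The ages did not overlap in any of the 3. Igf2, the fetal growth factor, differed by -0.39 ± 0.26 (limma adjusted p = 0.359), or -0.23 without replicate 2 of 9.5 dpp, and the list's median was -0.55, or -0.29 without replicate 2 of 9.5 dpp.

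Markers of blood and other cells differed among the 9.5 dpp arrays. The mean level of 23 tested macrophage genes (of 30) was 7.69, 8.21 and 7.22 on the 3 arrays at 9.5 dpp, against 7.11, 7.13 and 6.97 at 7.5 dpp. All 3 means at 9.5 dpp were above all 3 at 7.5 dpp. Among the 23 differences 20 were positive and 3 negative, with a median of 0.81, or 0.45 without replicate 2 of 9.5 dpp. Cbr2 and Cd209f were called higher (1.08 ± 0.33 and 1.00 ± 0.29), which is 8.7% of the list against 1.37% of all genes. In this list 3 genes were detected on no array of the 6. Cbr2 was not called without replicate 2 of 9.5 dpp (0.64) or any 1 array of 7.5 dpp (0.83 to 1.23), nor Cd209f without replicate 2 (1.02) or 3 (0.93) of 9.5 dpp or replicate 1 (0.95) or 2 (0.75) of 7.5 dpp. The mean of 8 tested erythrocyte genes (of 17) was 9.11, 9.91 and 8.81 at 9.5 dpp, against 8.95, 9.25 and 8.96 at 7.5 dpp. The mean of 4 tested genes of epididymis and duct epithelium (of 19) was 5.58, 6.78 and 5.31 at 9.5 dpp, against 6.32, 6.08 and 5.88 at 7.5 dpp. In each of the 3 lists replicate 2 of 9.5 dpp had the highest mean. Without that array the epithelial keratin gene Krt8 was called lower (-1.45, limma adjusted p = 0.0471). The part of these cells in the results was not tested.

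Of 22 tested endothelial genes (of 23), 2 were called higher (9.09%) and 0 lower, against 1.37% and 0.735% of all genes. None was called without replicate 2 of 9.5 dpp. The median of the list was 0.15, and 0.13 without that array. Ly6c1, a surface antigen found on endothelium and some leukocytes, was at 8.03, 10.27 and 8.24 at 9.5 dpp, against 7.17, 7.63 and 6.35 at 7.5 dpp (1.80 ± 0.43, limma adjusted p = 0.0114, and 1.09 and not called without replicate 2). It was not called without replicate 3 of 7.5 dpp either (1.45). Gpihbp1, the lipase anchor of capillaries, was called higher too (1.34 ± 0.40), and not without that array (0.71). From other lists, the histone gene H4c3 (1.45 ± 0.42, 0.71 without) and the cyclin gene Ccne2 (1.03 ± 0.32, 0.92 without) were called higher, and the early growth response gene Egr2 was called lower (-1.06 ± 0.29, -0.84 without), none of them without replicate 2. Some of these calls also ended without 1 array of 7.5 dpp, namely replicate 1 for Ccne2 (0.69) and Egr2 (-0.88), replicate 2 for Gpihbp1 (1.28), H4c3 (1.18) and Ccne2 (1.06), and replicate 3 for Gpihbp1 (1.11) and H4c3 (1.41). That of Ccne2 ended without replicate 3 of 9.5 dpp as well (1.04). Other cell cycle genes mostly went the other way. Of 27 tested differences 21 were negative and 6 positive, with a median of -0.22, or -0.16 without replicate 2 of 9.5 dpp. By limma adjusted p alone 4 of the 27 were lower and 1 higher with all 6 arrays. None of those 4 passed without replicate 2 of 9.5 dpp. The mean level of 13 tested histone genes was 8.90, 10.21 and 8.98 at 9.5 dpp, against 9.34, 8.81 and 8.68 at 7.5 dpp. No gene was called in limma, with or without replicate 2, among 11 tested peritubular myoid genes, 26 ribosomal protein genes, 30 oxidative phosphorylation genes or 17 cholesterol synthesis genes. Of the 30 oxidative phosphorylation genes, 6 were higher and 0 lower by limma adjusted p alone, against 3.57% and 3.33% of all genes. Their median was 0.34, or 0.07 without replicate 2 of 9.5 dpp. Mean levels of that list were 11.30, 12.06 and 11.37 at 9.5 dpp, against 11.41, 11.24 and 11.23 at 7.5 dpp.

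Ordered by size, the list of higher genes was led by Cacng5, which encodes a calcium channel gamma subunit. It was at 10.05, 8.67 and 10.20 at 9.5 dpp, against 4.81, 5.14 and 8.06 at 7.5 dpp (3.64 ± 0.57, limma adjusted p = 0.000365). Its 3 kept probes differed by 0.71 to 3.64, and replicate 3 of 7.5 dpp was far above the other 7.5 dpp arrays. The predicted gene Gm10439 was at 7.39, 8.27 and 7.99 at 9.5 dpp, against 4.74, 4.76 and 4.85 at 7.5 dpp, all undetected (at least 4.70-fold, limma adjusted p = 0.00165). H2bfm, an X-linked gene of the H2B histone family, was at 7.96, 8.83 and 8.07 at 9.5 dpp, against 4.81, 5.39 and 5.83 at 7.5 dpp (2.94 ± 0.31, limma adjusted p = 1.27e-06). Gal3st1, the sulfotransferase that makes a germ cell glycolipid, was at 8.44, 7.76 and 8.58 at 9.5 dpp, against 5.11, 5.77 and 6.55 at 7.5 dpp (2.45 ± 0.35, limma adjusted p = 9.98e-05). All 4 genes had no overlap between the ages and were called without replicate 2 of 9.5 dpp too.

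Of the remaining large increases, H2-Ab1, Tpbgl and 1190007I07Rik were less stable and Defb45 was not. H2-Ab1, a class II antigen presentation gene, was at 7.84, 6.79 and 7.91 at 9.5 dpp, against 5.55, 4.47 and 4.73 at 7.5 dpp (2.60 ± 0.65, limma adjusted p = 0.0165). It was not called without replicate 2 of 7.5 dpp (2.37, limma adjusted p = 0.0628) or replicate 3 of 7.5 dpp (2.50, limma adjusted p = 0.0518). Its 3 kept probes differed by 1.17 to 2.60. Tpbgl was at 7.60, 5.77 and 9.22 at 9.5 dpp, where 2 of the 3 arrays detected it, and was undetected at 7.5 dpp (at least 3.69-fold, limma adjusted p = 0.0216). Its call ended without replicate 3 of 9.5 dpp (1.72) and without replicate 1 (2.48) or 2 (2.44) of 7.5 dpp. The RIKEN transcript 1190007I07Rik rose by 3.01-fold or more at 9.5 dpp, being undetected at 7.5 dpp (2.52 ± 0.72 as fitted, limma adjusted p = 0.0321). It was not called without replicate 2 of 9.5 dpp (2.14) or without any 1 array of 7.5 dpp (2.45 to 2.59). Defb45, a beta-defensin gene, was at 10.14, 11.62 and 10.86 at 9.5 dpp, against 7.39, 9.26 and 8.69 at 7.5 dpp (2.43 ± 0.50, limma adjusted p = 0.00422). It was also called without any 1 of the 6 arrays, at 2.05 without replicate 2 of 9.5 dpp (limma adjusted p = 0.0374).

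Among the lower genes Nudt6, of the nudix hydrolase family, had the largest difference. It was undetected at 4.52, 5.44 and 4.81 on the 9.5 dpp arrays, against 8.17, 8.35 and 8.45 at 7.5 dpp, all detected. It was at least 6.39-fold lower at 9.5 dpp (-3.40 ± 0.81, limma adjusted p = 0.0115), and of the 43 called genes chosen by the rule for named genes it is the 1 that was called under every alternative processing. It rests on 1 probe, whose signal varied within later ages in vivo. At 14.5 dpp 1 of 3 arrays detected it, with a highest level of 8.03, and at 21.5 dpp 1 of 3, with a highest of 6.79. It was undetected at 11.5, 13.5 and 16.5 dpp. Adamts16, a secreted metalloprotease gene, was at 5.28, 5.19 and 4.81 at 9.5 dpp, undetected, against 8.34, 6.88 and 6.43 at 7.5 dpp (at least 2.97-fold lower, limma adjusted p = 2.83e-06). Foxc2, a forkhead factor, had the smallest adjusted p of the lower genes. It was at 4.78, 4.78 and 4.71 at 9.5 dpp, undetected, against 6.11, 5.77 and 6.08 at 7.5 dpp (at least 1.27-fold lower, limma adjusted p = 1.27e-06).

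Sgpp2, a sphingosine phosphate phosphatase gene, was at 5.55, 4.51 and 5.88 at 9.5 dpp, against 7.71, 7.09 and 6.94 at 7.5 dpp (-1.93 ± 0.40, limma adjusted p = 0.004). Clasrp, a splicing-related gene, was at least 2.23-fold lower (limma adjusted p = 0.00539). Epb41l2, a membrane skeleton gene, was at 8.12, 9.43 and 8.13 at 9.5 dpp, against 10.75, 10.41 and 10.44 at 7.5 dpp (-1.97 ± 0.59, limma adjusted p = 0.0408). It was not called without replicate 1 (-1.75) or 3 (-1.76) of 9.5 dpp or without any 1 array of 7.5 dpp (-2.03 to -1.86), and its 3 probes ran from -1.97 to 0.09. Zfp641 (-1.64 ± 0.42), Creb5 (-1.63 ± 0.50) and Car12 (-1.63 ± 0.44) were not called without replicate 2 of 9.5 dpp (-0.77, -0.73 and -1.40). The first of them also lost its call without replicate 2 of 7.5 dpp (-1.46), and the other two lost theirs without replicate 1 (-1.53 for Creb5, -1.45 for Car12) or 2 (-1.45 and -1.64) of 7.5 dpp. The 2 kept probes of Car12 differed by -1.63 and -0.17. Zfp951, a zinc finger gene, was at least 1.43-fold lower (-1.58 ± 0.39), and not called without replicate 3 of 7.5 dpp (-1.22).

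Genes on the X chromosome, silenced in later spermatocytes but read in spermatogonia, made up 23 of the 171 higher genes (13.5%) and 3 of the 89 lower genes with a known chromosome (3.37%). They made up 470 of the 12492 tested genes with a known chromosome (3.76%). Without replicate 2 of 9.5 dpp they were 15 of 122 higher genes (12.3%). Besides Gm10439, H2bfm, Rhox5 and Rhox13 the 23 included Tex16 (1.04 ± 0.26, limma adjusted p = 0.0169), a testis gene whose call ended without replicate 1 (0.99) or 3 (1.00) of 9.5 dpp and without replicate 1 (0.89) or 2 (0.92) of 7.5 dpp. Also among the 23 were Magea6 (1.26), Magea10 (1.24), Dmrtc1a (1.46) and Fmr1nb (1.63), and Magea10 was not called without replicate 2 of 9.5 dpp (0.92). Several belong to families of near-identical X-linked copies, whose probes may not tell the copies apart. Of 15 X-linked germ cell genes, 12 were tested, and Rhox13 and Tex16 were called higher and none lower. Of all genes 1.37% were called higher and 0.735% lower.

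The first 2 days were set against a later step of 2 days, from 11.5 to 13.5 dpp in vivo, which shares no array with them. At 13.5 dpp, 2 genes (0.016%) were higher and 38 (0.304%) lower than at 11.5 dpp, with 2 arrays at 13.5 dpp. In the contrast of the 2 steps, 56 genes (0.447%) changed more upward in the first step and 39 (0.312%) more downward. Without replicate 2 of 9.5 dpp these counts were 30 and 17. Of the genes called in the first step, 28 higher and 13 lower ones differed between the steps. Such genes were chosen for a large first step, which is also a term of the contrast. An excess over the later step was therefore favoured in advance for them and for the genes named next. Prss50 changed by 2.99 and then by 0.24 (difference 2.75 ± 0.50, limma adjusted p = 0.00564). Terb1 changed by 2.02 and then by -0.38 (2.40 ± 0.46, limma adjusted p = 0.00904), and H2bfm by 2.94 and then by -0.35 (3.29 ± 0.47, limma adjusted p = 0.000587). Adamts16 changed by -2.12 and then by -0.21 (-1.91 ± 0.36, limma adjusted p = 0.00904). Meiob, at 3.03 and then 0.94, and Stra8, at 1.29 and then -0.06, did not differ past the threshold between the steps (limma adjusted p = 0.123 and 0.144).

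**Figure D4:**
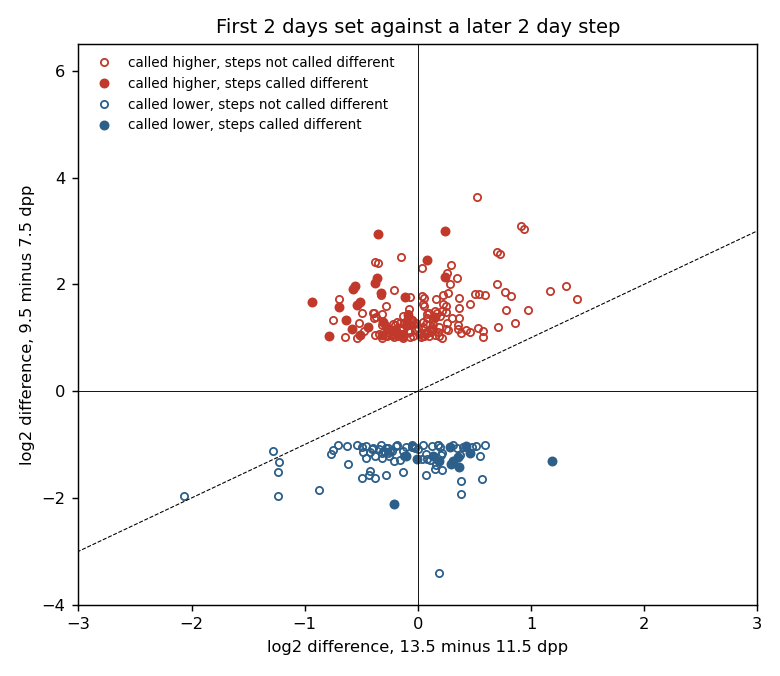
Each point is a gene called between 9.5 and 7.5 dpp, with that log2 difference on the y axis and the difference 13.5 minus 11.5 dpp on the x axis; the dashed line marks equal change. Filled points are the 28 higher and 13 lower genes whose 2 steps were called different.

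The later ages show where the called genes went. Relative to 7.5 dpp, the median of the 171 higher genes was 1.30 at 9.5 dpp, 1.44 at 11.5 dpp, 1.33 at 13.5 dpp, 1.12 at 14.5 dpp, 1.22 at 16.5 dpp and 1.01 at 21.5 dpp. The median of the 92 lower genes was -1.16, -1.22, -1.24, -1.07, -1.32 and -1.69 at the same ages. Since all these values share the 7.5 dpp arrays that took part in the calls, they are a description. Meiob averaged 5.14 at 7.5 dpp, 8.17 at 9.5 dpp, 9.86 at 11.5 dpp, 10.79 at 13.5 dpp and 11.69 at 14.5 dpp, and it was 10.76 at 21.5 dpp. Stra8 averaged 6.24, 7.52, 7.50, 7.44, 6.54, 7.35 and 5.10 over the 7 ages from 7.5 to 21.5 dpp. Inhba averaged 10.70, 8.85, 8.66, 7.78, 7.39, 7.04 and 5.70 over the same ages, lower at each.

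**Figure D5:**
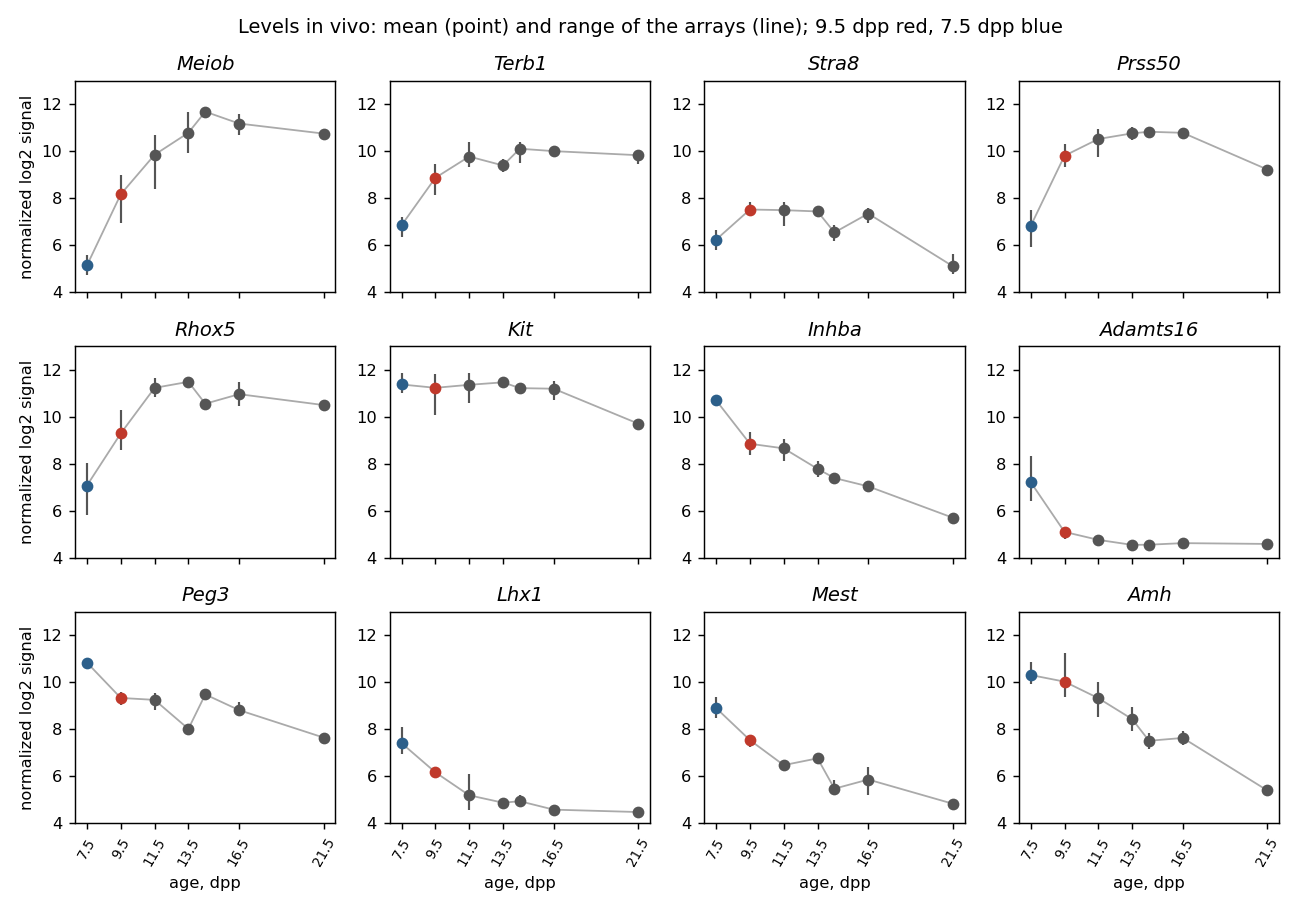
Normalized log2 signal of 12 genes in vivo from 7.5 to 21.5 dpp, with the mean as a point and the range of the arrays as a line, 3 arrays per age and 2 at 13.5 dpp. Meiob, Terb1, Prss50 and Rhox5 are higher at every later age than at 7.5 dpp. Stra8 has close means of 7.52, 7.50 and 7.44 at 9.5, 11.5 and 13.5 dpp. Inhba and Lhx1 are lower at every later age than at 7.5 dpp, and Amh is near its 7.5 dpp level at 9.5 dpp and lower afterwards.

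Testes placed in organ culture at 7.5 dpp and sampled at the same 9.5 dpp age were measured against the same 3 arrays at 7.5 dpp, so the 2 comparisons share them and only their values are set side by side. Meiob differed by 4.02 after 2 days in culture and by 3.03 in vivo, Terb1 by 2.53 and 2.02, and Prss50 by 3.36 and 2.99. Stra8 differed by 0.25 in culture (limma adjusted p = 0.665) and by 1.29 in vivo. Rhox13 differed by 0.30 in culture and 1.28 in vivo. Amh differed by -3.85 in culture (limma adjusted p = 1.07e-06) and by -0.28 in vivo, and Peg3 by -0.41 in culture and -1.51 in vivo.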

How the data were processed

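Bead-array signals of 38 of the 39 samples were used. Per the file headers, the deposited table holds a signal intensity per probe and array, not normalized, with a detection p-value beside each. The authors' second deposited table holds values treated here as log2, made with lumi per the submitters' processing notes, and served as an alternative. The signal column of 1 array and its detection column, 2 in all, carry no sample name and were not used, which leaves 2 arrays at 13.5 dpp although the design had assumed all.

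Signals were background corrected and quantile normalized with neqc (limma 3.58.1, R 4.3.3), which worked out the controls from detection p-values and used an offset of 16. Probes with detection p below 0.01 on at least 3 arrays were kept, and the brightest probe stood for each of 12518 genes. One mean per group was fitted over all 13 groups with lmFit and eBayes (trend, 25 residual degrees of freedom), with Benjamini-Hochberg adjustment over all genes. The fit was tested on simulated data. The highest correlation between any pair of the 6 arrays was 0.990, and no array repeated another. Depth is not defined for arrays, and their number limits the precision.

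Named genes are the 10 largest called differences per direction with no overlap between the ages, a panel of 20 genes, and up to 4 called members per direction of each of 26 hand-written lists. Where the meiotic list is described, its other called members and some uncalled ones are named too, and Foxc2, Gdnf, Exd1, Krt8 and a few list members were added after their values were seen. Members, lists and tests were chosen with earlier results of these data known. The alternatives were each array left out, a replicate block, the 6 arrays alone, other normalizations, filters, probe rules, thresholds, the authors' values and array weights. RefSeq's promoter table (GRCm38.p6) gave the sequences.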

Additional observations from a re-analysis of the deposited data

Results flagged for a closer look

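The change from 7.5 to 9.5 dpp and the change from 11.5 to 13.5 dpp are the same contrast at different ages, and their difference was tested directly in limma. By that test 56 genes changed more upward and 39 more downward in the first step. Among the genes named above, the first step exceeded the later one by 3.29 for H2bfm, 2.75 for Prss50, 2.40 for Terb1, 2.37 for Gal3st1 and 1.38 for Rhox13 (log2). It was below the later one for Adamts16 (-1.91), Glis3 (-1.78) and Mest (-1.66). All of these genes had been called for their first step, so a larger change in that step was favoured in advance. At 13.5 dpp there were 2 arrays.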

How the results depend on the processing

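The counts of 171 higher and 92 lower genes moved with the processing. Leaving out 1 array at a time gave 116 to 344 higher and 61 to 244 lower genes. The 6 arrays alone gave 3 and 1, median centring 110 and 111 (49.8% higher, against 65%), no background correction 74 and 37, the authors' values 35 and 16, and no minimum difference 447 and 417. The genes differing between the steps were 95, and 47 without replicate 2 of 9.5 dpp. The 13 meiotic calls became 0 with the 6 arrays alone, 2 with the authors' values, 6 with no background correction, 7 with median centring and 9 to 13 with 1 array left out. The 3 imprinted calls became 0 with the 6 arrays alone and 1 with the authors' values. The 4 higher calls of spermatogonial differentiation became 0 with the 6 arrays alone, and its 1 lower call became 0 with the 6 arrays alone, the authors' values or array weights and ranged from 0 to 1 with 1 array left out. The cause was not tested. Same-numbered arrays deviated together by -0.04, -0.02 and 0.185, against -0.176 to 0.127 for the other pairs. With 3 arrays per age these values cannot decide whether the numbers mark a pairing. The replicate block gave 180 higher and 95 lower genes and 98 between the steps. The uncalled differences that changed sign when 1 array was left out ran from -0.41 to 0.086 for Zbtb16 (positive without replicate 1 of 9.5 dpp), from -0.43 to 0.43 for Kit (positive without replicate 2 of 9.5 dpp or 3 of 7.5 dpp) and from -0.90 to 0.036 for Amh (positive without replicate 1 or 3 of 9.5 dpp or 1 of 7.5 dpp). They ran from -0.091 to 0.11 for Insl3 (negative without replicate 2 or 3 of 9.5 dpp or 3 of 7.5 dpp), from -0.26 to 0.64 for Igf1 (negative without replicate 2 of 9.5 dpp) and from -0.00034 to 0.21 for Sohlh1 (negative without replicate 1 of 7.5 dpp). With array weights the values were 0.40 for Kit, -0.10 for Sohlh1, -0.052 for Insl3 and -0.41 for Igf1. Dim probes limit detection, so an undetected gene has only a bound.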

Other observations

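Of 3741 kept probes without exactly 1 gene symbol, 33 were called higher and 49 lower at 9.5 dpp by the same limma rule. Among the 12518 genes these counts were 171 (1.37%) and 92 (0.735%). The probes without exactly 1 symbol stand in no gene count above. Among the 41 called genes whose 2 steps also differed were Pparg, a nuclear receptor of lipid metabolism, at 7.82, 7.70 and 8.07 at 9.5 dpp, against 5.98, 5.78 and 6.31 at 7.5 dpp (1.84 ± 0.27, limma adjusted p = 0.000155), and M1ap, a gene needed for male meiosis I, at 8.78, 8.52 and 8.82, against 6.82, 7.67 and 8.04 (1.19 ± 0.25, limma adjusted p = 0.00532). Figla, known as an oocyte transcription factor, was at 6.72, 7.62 and 6.93 at 9.5 dpp, against 6.08, 5.60 and 6.41 at 7.5 dpp (1.06 ± 0.26, limma adjusted p = 0.0153), and was not called without replicate 2 of 9.5 dpp (0.79). These 3 genes were chosen after their values were seen.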
